A study of Homo sapiens with 12 samples.

Results

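The 10 genes MT-ND1, MT-ND2, MT-ND3, MT-ND4, MT-ND5, MT-ND6, MT-CYB, MT-CO1, MT-CO2 and MT-CO3 encode the subunits of respiratory complexes I, III and IV that are carried on mitochondrial DNA and were examined here. They were taken by symbol from a list, with no cut on measured values, although earlier results of these data were known. They make up 10 of the 43481 genes in the tables and 10 of the 13 mitochondrial DNA genes there. The RNA was from RPE-1 cells, a human line derived from retinal pigment epithelium. All cells first spent 24 h deprived of both fetal calf serum (FCS) and glucose. Those of the DMA group were then stimulated for 4 h with 10% FCS and glucose at 5 g/l in the presence of 100 µM dimethyl amiloride, an inhibitor of Na+/H+ exchangers. The C646 group received the same medium for 4 h with 10 µM C646, an inhibitor of the histone acetyltransferases p300 and CBP. The solvent group received it with DMSO, and the starved group was collected at the end of starvation. Each group has 3 libraries of poly-A messenger RNA. The labels do not say that replicates are separate cultures, so p-values measure only the spread between these libraries, which may be technical.

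Complex I takes electrons from NADH, complex III passes them to cytochrome c and complex IV hands them to oxygen, and all of them pump protons across the inner mitochondrial membrane. Each complex is built from a few subunits made inside the mitochondrion and many made from nuclear genes. Mitochondrial DNA is transcribed from both strands into long precursors, which are cut mostly at the tRNAs between genes, and the resulting messengers receive a short poly-A tail. MT-ND6 is read from the opposite strand to the other members, and its messenger is known to lack the usual tail.

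The members differ in how their reading frames end, which is shown here because the libraries were made from poly-A RNA and because a tail supplies the missing letters of an incomplete stop codon. The frame of 6 members ends with T or TA, and that of the other 4 ends with a whole stop codon. The last 24 bases of the 5 members that fell after DMA relative to starved cells, and of MT-ND6, read as follows in the GENCODE 29 transcripts on GRCh38, with the stop letters in capitals.
MT-ND3, chrM:10381-10404, plus strand: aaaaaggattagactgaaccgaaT
MT-ND4, chrM:12114-12137, plus strand: acatcattaccgggttttcctctT
MT-ND5, chrM:14125-14148, plus strand: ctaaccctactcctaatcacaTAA
MT-CYB, chrM:15864-15887, plus strand: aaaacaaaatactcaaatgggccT
MT-CO1, chrM:7422-7445, plus strand: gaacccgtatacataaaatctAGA
MT-ND6, chrM:14149-14172, minus strand: attgagattgctcgggggaatAGG
MT-ND4 shares its messenger with MT-ND4L, a further complex I subunit, and 7 bases lie in both reading frames. They are in capitals in the stretch that spans the junction.
MT-ND4L and MT-ND4, chrM:10751-10775, plus strand: cctactccaATGCTAAaactaatcg
The strand also shows in the base composition. Guanine made up 9.5% to 16.21% of the 9 members read from the plus strand and 35.62% of MT-ND6.

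The libraries held 14910516 to 28968510 expected counts, and each member had at least 549 of them in each library, so counting error was small beside the spread between replicates. Solvent library 1 stood apart in a cell cycle gene: CCNE2, which encodes cyclin E2, measured 41.8 CPM there and 8.04 and 12.6 CPM in solvent libraries 2 and 3 (CPM are counts relative to the scaled library total). Starved library 3 was the smallest library, with 14910516 expected counts where the next smallest, DMA library 1, had 20262061. It also stood apart in the mitochondrial transcripts themselves, as described with the results. Of 11 markers of retinal pigment epithelium, RPE65, RLBP1 and TYR did not pass the filter on low counts, and PMEL, SERPINF1 and BEST1 were low, at 0 to 3.92 CPM. KRT8 measured 220 to 558 CPM, EZR 129 to 269 CPM, MITF 17.4 to 55.4 CPM and OTX2 6.76 to 21.9 CPM. KRT18 passed the filter as well. Relative to starved cells, 1 of the 8 markers tested was higher and 2 were lower with solvent. After DMA 2 were higher and 1 lower, and after C646 1 was higher and 1 lower. In each direction 11.7% to 13.9% of all genes tested were called there. None of the 8 passed for either inhibitor against solvent. Of 6 markers of other cell types, EPCAM did not pass the filter, and PTPRC, PECAM1, VWF and ALB measured at most 1.1 CPM in each library. The fibroblast marker COL1A1 moved with the groups, at 1.14 to 1.96 CPM after DMA, 2.61 to 9.53 CPM after C646, 2.55 to 6.46 CPM with solvent and 3.35 to 8.28 CPM in starved cells, and its part in the results on DMA was not tested. Near-identical nuclear copies of mitochondrial genes were not analysed here, and reads could be split between them. Of the 31-base words of each member, 3.48% for MT-ND3, 4.95% for MT-CYB and 15.1% for MT-ND5 also occur in another gene of GENCODE 29. The other members share 21.2% to 66.7% and are uncertain in this respect. These shares are with all genes of the annotation, nuclear copies included, and say nothing of a split within the tables, where each member shared 0% to 3.17% of its words with other transcripts.

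Per length, the members spanned a wide range of levels. In TPM, a transcript share corrected for length, medians over the 12 libraries were 6682 for MT-CO2, 5406 for MT-CO1, 4113 for MT-ND4, 3933 for MT-CO3, 3459 for MT-ND3, 3025 for MT-ND2, 2273 for MT-ND1, 1918 for MT-CYB, 638 for MT-ND5 and 103 for MT-ND6. MT-CO2, which holds a copper centre of complex IV, was the highest member in all 12 libraries, and MT-ND5 and MT-ND6 were the lowest, in that order, in all 12. The messenger of MT-ND6 is known to lack the usual tail, so in poly-A libraries its level cannot be set directly against the others. The part of the poly-A selection was not tested. Of the 9 neighbouring pairs in this order, 6 held in 12 of 12 libraries. MT-ND3 lay above MT-ND2 in 10 of 12 libraries and MT-ND1 above MT-CYB in 9 of 12, so these neighbours are not separated by their spread. MT-ND4 lay above MT-CO3 in 5 of 12 libraries, and the order went with the group. In DMA libraries the TPM of MT-ND4 was 0.682 to 0.854 times that of MT-CO3. It was 1.21 to 1.33 times in C646 libraries, 0.668 to 0.826 times in solvent libraries and 0.970 to 1.24 times in starved libraries.

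**Figure D1:**
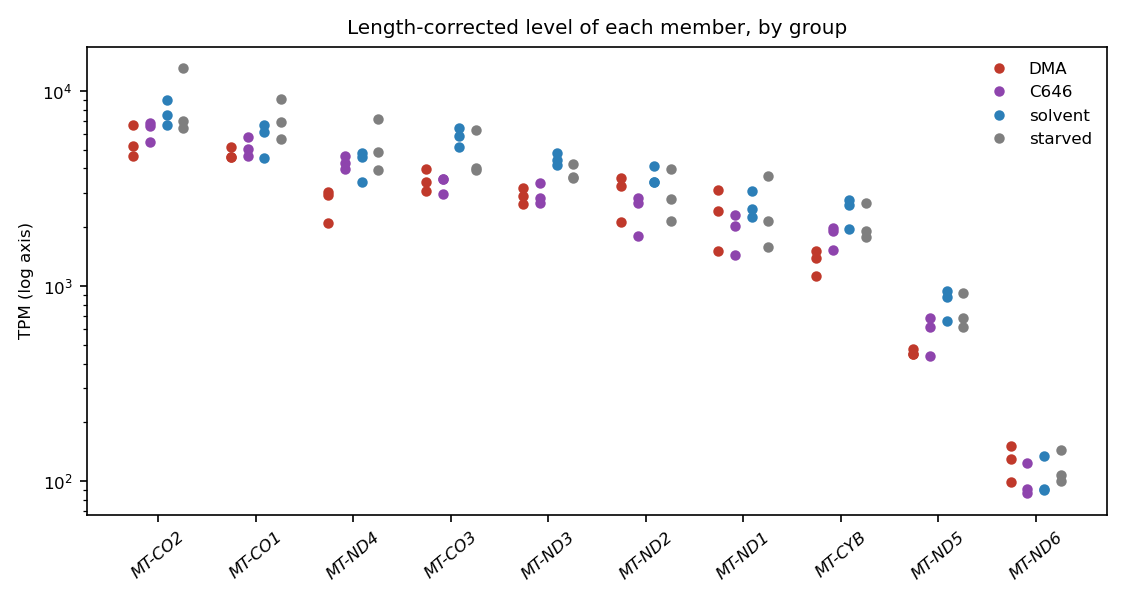
TPM of each member in the 12 libraries on a log axis, with the members in the order of their medians and DMA, C646, solvent and starved libraries side by side within each gene. MT-CO2 stands highest with a median of 6682 TPM and MT-ND6, whose messenger lacks the usual poly-A tail, lowest with 103 TPM. MT-ND4 lies above MT-CO3 in the C646 libraries but below it in the DMA and solvent libraries.

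The 13 mitochondrial DNA genes together took a smaller share of the counts in either inhibitor group than in solvent or starved cells. The share was 1.67%, 2.08% and 2.38% in DMA libraries 1 to 3. It was 2.12%, 2.18% and 2.34% in C646 libraries, 3.00%, 3.24% and 2.48% in solvent libraries and 2.39%, 2.49% and 4.14% in starved libraries. No DMA or C646 library reached the lowest solvent or starved library, but DMA library 3 at 2.378% lay just under starved library 1 at 2.394%. Counting error was small beside these differences: the Wilson 95% binomial interval of the lowest share ran from 1.665% to 1.676%, and it covers counting error only.

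The mean share was 2.04% ± 0.355 after DMA and 2.90% ± 0.388 with solvent (SD, n = 3 each), a ratio of 0.704 and the smallest p that an exact two-sided permutation test of 3 against 3 allows, 0.1. C646 cells averaged 2.21% ± 0.115, a ratio of 0.762 to solvent, again with p = 0.1 in the exact permutation test. Starved cells averaged 3.01% ± 0.982. The ratio to starved cells was 0.679 after DMA (exact permutation p = 0.1), 0.735 after C646 (exact permutation p = 0.1) and 0.965 with solvent (exact permutation p = 0.9). DMA against C646 gave a ratio of 0.923 (exact permutation p = 0.6). Paired by replicate number, where the smallest p of 3 pairs is 0.25, DMA and C646 lay below solvent in each pair (exact permutation p = 0.25 for both). From shares in bulk RNA, less mitochondrial RNA per cell, more of the other RNA and a different make-up of the cells cannot be told apart.

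The spike-in control sequences moved with the groups as well, so the share depends on what it is set against. They took 0.535% to 0.743% of the counts in DMA libraries, 0.546% to 0.829% in C646 libraries, 0.527% to 1.06% in solvent libraries and 0.872% to 1.28% in starved libraries. Per spike-in count, mitochondrial counts measured 2.25, 3.78 and 4.45 in DMA libraries. They measured 2.55, 4.00 and 4.04 in C646 libraries, 2.83, 6.14 and 3.74 in solvent libraries and 1.87, 2.60 and 4.75 in starved libraries. On this scale all 4 groups overlapped, and the log2 ratio to starved cells was above 0 for each of the other groups: 0.18 after DMA, 0.20 after C646 and 0.46 with solvent. The ratio to solvent kept its sign, with a log2 of -0.28 after DMA and -0.26 after C646 (exact permutation p = 0.7 for both). The labels do not state how the spike-in amount was set against the cells, and its part in these differences was not tested.

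**Figure D2:**
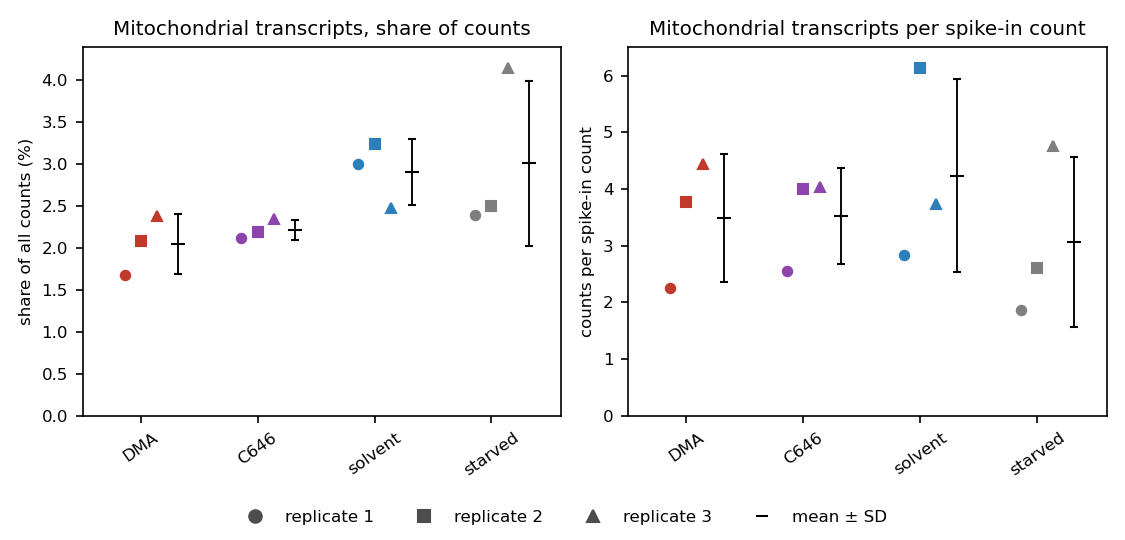
Share of all counts (%, left) and counts per spike-in count (right) of the 13 mitochondrial DNA genes in each library, by group, with markers for replicates 1 to 3 and the mean ± SD beside them. On the left, DMA (1.67% to 2.38%) and C646 (2.12% to 2.34%) lie below solvent (2.48% to 3.24%) and starved cells (2.39% to 4.14%), while on the right the 4 groups overlap.

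After DMA, MT-ND3 and MT-CYB fell relative to solvent, and the remaining members did not pass the test. Of the 10 members, 9 had fitted values below 0, and the median log2 fold change was -0.56, against 0.01 for all genes tested. The test was edgeR's quasi-likelihood test with Benjamini-Hochberg adjustment over 15263 genes and a threshold of 0.05. It called 2 of 10 members lower and none higher, where 1.02% of all genes tested were lower. With the replicate number as a block it called 4 of 10 lower, where 5.46% of all genes tested were lower.

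MT-ND3, a small subunit in the membrane arm of complex I, measured 371, 417 and 469.8 CPM in DMA libraries 1 to 3 and 637, 744 and 622 CPM in solvent libraries. The groups did not overlap, and its log2 fold change was -0.67 ± 0.14 (SE, n = 3 each; edgeR adjusted p = 0.0351, and 0.00607 with the block). MT-CYB, the subunit of complex III that carries its catalytic hemes b, measured 894, 1098 and 1222 CPM after DMA and 2144, 2142 and 1596 CPM with solvent. Again the groups did not overlap, with a log2 fold change of -0.87 ± 0.20 (edgeR adjusted p = 0.0437, and 0.0151 with the block). Both end with the partial stop codon T shown above. They also share the fewest 31-base words with other genes among the members.

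The block added MT-ND5, a proton-pumping subunit of complex I, and MT-CO3, the third core subunit of complex IV. MT-ND5 measured 603, 639 and 618 CPM after DMA and 1165, 1318 and 902 CPM with solvent, a log2 fold change of -0.86 ± 0.21 (edgeR adjusted p = 0.0524, and 0.0418 with the block). MT-CO3 measured 1603, 1777 and 2116 CPM after DMA and 3264, 3162 and 2709 CPM with solvent, a log2 fold change of -0.73 ± 0.20 (edgeR adjusted p = 0.0805, and 0.0242 with the block). MT-ND4, another proton-pumping subunit, measured 2062, 2875 and 3059 CPM after DMA and 4428, 4938 and 3467 CPM with solvent. It did not pass in either fit (log2 fold change -0.68 ± 0.23, edgeR adjusted p = 0.137, and 0.0606 with the block). These 3 genes, MT-ND3 and MT-CYB made 5 of 10 members whose DMA libraries all lay below all solvent libraries, against 11.9% of all genes tested. MT-ND1, MT-ND2, MT-CO1 and MT-CO2 overlapped between the groups, with log2 fold changes of -0.46 to -0.16.

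In the fit without the block, both calls depended on single libraries. So did the number of all genes called in either direction. It was 267 with all libraries, 1 without DMA library 2, 8 without solvent library 1 and 286 without DMA library 1. Without the block, the call of MT-CYB was lost on leaving out any 1 of DMA libraries 1, 2 and 3 or solvent libraries 1 and 2 (edgeR adjusted p = 0.0610 to 0.173), with log2 fold changes of -0.99 to -0.76. That of MT-ND3 was lost without DMA library 1 or 2 or solvent library 1 or 2 (edgeR adjusted p = 0.0712 to 0.144), with values of -0.70 to -0.59. With the block, MT-ND3 remained past the threshold whichever of the 6 libraries was left out (edgeR adjusted p = 0.0035 to 0.046), whereas MT-CYB lost its call on leaving out each of them except solvent library 3 (edgeR adjusted p = 0.0507 to 0.0717). Differences were smaller between the libraries numbered 3: the log2 ratio of MT-CYB was -1.26, -0.96 and -0.38 within numbers 1, 2 and 3. With scaling to the spike-in counts neither gene passed without the block. With both, MT-CYB passed (log2 fold change -0.64, edgeR adjusted p = 0.0258) and MT-ND3 did not (-0.43, edgeR adjusted p = 0.0913). The calls that the block added, MT-ND5 and MT-CO3, were lost in the blocked fit on leaving out any 1 library except solvent library 3 (edgeR adjusted p = 0.116 to 0.158 for MT-ND5 and 0.0809 to 0.110 for MT-CO3).

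**Figure D3:**
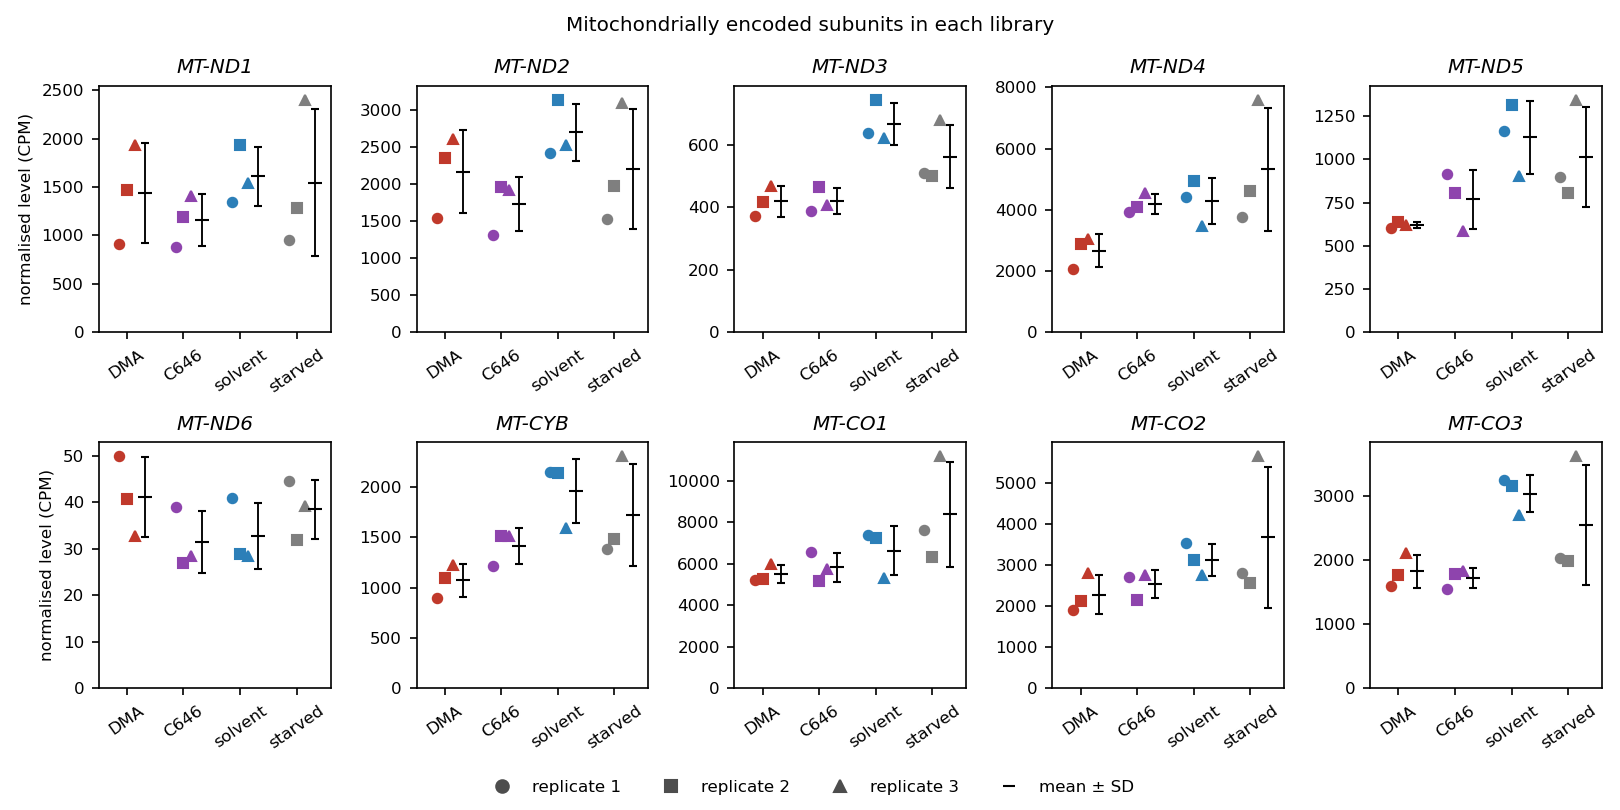
Normalised level (CPM, linear axis from 0) of each member in the DMA, C646, solvent and starved libraries, with markers for replicates 1 to 3 and the mean ± SD beside them. MT-ND3 and MT-CYB are lower in all DMA libraries than in all solvent libraries, and starved library 3 is the highest starved library for 9 of the 10 members.

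After C646, MT-ND3 fell relative to solvent and was the only member past the threshold. It measured 387, 466 and 407 CPM in C646 libraries and 637, 744 and 622 CPM in solvent libraries. The groups did not overlap, and the log2 fold change was -0.67 ± 0.14 (SE, n = 3 each; edgeR adjusted p = 0.0404, and 0.00664 with the block). Thus 1 of 10 members was called lower and none higher, where 0.4% of all genes tested were lower. The median over the members was -0.47, against 0.01 for all genes tested.

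With the replicate block, 3 of 10 members were called lower, where 3.73% of all genes tested were lower. MT-CO3 measured 1551, 1783 and 1839 CPM after C646 and 3264, 3162 and 2709 CPM with solvent, a log2 fold change of -0.82 ± 0.20 (edgeR adjusted p = 0.0694, and 0.0192 with the block). MT-ND2, a proton-pumping subunit of complex I, measured 1314, 1964 and 1923 CPM after C646 and 2426, 3136 and 2531 CPM with solvent. Its log2 fold change was -0.64 ± 0.26 (edgeR adjusted p = 0.238, and 0.0258 with the block). With MT-ND3 and MT-CYB, these made 4 of 10 members whose groups did not overlap, against 11.6% of all genes tested. MT-ND4 overlapped between the groups, at 3925, 4082 and 4541 CPM after C646 and 4428, 4938 and 3467 CPM with solvent (log2 fold change -0.03 ± 0.23, edgeR adjusted p = 0.966). Without the block, the call of MT-ND3 was lost on leaving out any 1 of the 6 libraries (edgeR adjusted p = 0.0576 to 0.162, log2 fold change -0.75 to -0.59). With the block it was kept each time (edgeR adjusted p = 0.00478 to 0.0455). The blocked call of MT-ND2 was lost on leaving out any library except solvent library 3 (edgeR adjusted p = 0.0585 to 0.138), and that of MT-CO3 on leaving out any except solvent library 3 or C646 library 2 (0.0735 to 0.113).

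Between the inhibitors, none of the 10 members passed the test in either direction, where 2.89% of all genes tested did and 1.95% were lower after DMA. DESeq2's Wald test called none either, and 1 member, MT-ND4, had an unadjusted edgeR p under 0.05. MT-ND4 measured 2062, 2875 and 3059 CPM after DMA and 3925, 4082 and 4541 CPM after C646. These groups did not overlap, as was the case for 11.1% of all genes tested in this direction, and the log2 fold change was -0.65 ± 0.23 (edgeR adjusted p = 0.165, and 0.0803 with the block). MT-ND4L, which shares the messenger and the 7 bases shown above, had a log2 fold change of -0.57 in this comparison. For MT-ND3 the log2 difference between the inhibitors was 0.00 ± 0.14 (edgeR adjusted p = 0.996), with a 95% interval of -0.28 to 0.28 by the normal approximation. The same interval lay below 0 for MT-ND4 (-1.11 to -0.19) and MT-CYB (-0.78 to -0.02), and it included 0 for the rest. It is not adjusted for the number of genes and is narrower than the test, where MT-CYB had an unadjusted edgeR p of 0.0621. The highest upper end was 0.96, for MT-ND1. Both inhibitor groups were set against the same solvent libraries, so their 2 comparisons with solvent are not independent of each other.

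Between solvent and starved cells, none of the 10 members passed the test, whereas 24.3% of all genes tested did, 12.6% higher and 11.7% lower. DESeq2's Wald test called none either, and no member had an unadjusted edgeR p under 0.05. Fitted log2 fold changes ran from -0.34 for MT-CO1 to 0.29 for MT-ND2, with a median of 0.11, and the groups overlapped for each member. Starved library 3 was far above the other starved libraries for most members. MT-CO2 measured 3523, 3118 and 2746 CPM in solvent libraries and 2799, 2569 and 5640.2 CPM in starved libraries. MT-CO1, the catalytic subunit of complex IV, measured 7399.7, 7233 and 5302 CPM in solvent libraries and 7632, 6339 and 11191 CPM in starved libraries. Without starved library 3, 2 of 10 members were called higher with solvent, MT-CO3 (log2 fold change 0.59, edgeR adjusted p = 0.0118) and MT-ND3 (0.40, edgeR adjusted p = 0.0471). In that refit 3447 genes were called in either direction, against 3704 with all 12 libraries, so the count of members was near the background.

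Relative to starved cells, 5 of 10 members fell after DMA, namely MT-ND3, MT-ND4, MT-ND5, MT-CYB and MT-CO1. None was called higher. Among all genes tested, 13% were lower and 13.9% higher, and 20.5% had DMA libraries that all lay below all starved libraries, as had the same 5 members. The median over the members was -0.54, against 0.00 for all genes tested. MT-ND4 had the largest fold change, with 2062, 2875 and 3059 CPM in DMA libraries and 3750.0, 4621 and 7588 CPM in starved libraries (log2 fold change -0.997 ± 0.234, edgeR adjusted p = 0.00754). MT-ND5 measured 603, 639 and 618 CPM after DMA and 896, 805 and 1344 CPM in starved cells (-0.71 ± 0.21, edgeR adjusted p = 0.0215). MT-CYB measured 894, 1098 and 1222 CPM after DMA and 1382, 1486 and 2304 CPM in starved cells (-0.69 ± 0.20, edgeR adjusted p = 0.0206). MT-CO1 measured 5242, 5258 and 5998 CPM after DMA and 7632, 6339 and 11191 CPM in starved cells (-0.61 ± 0.19, edgeR adjusted p = 0.0324). MT-ND3 measured 371, 417 and 469.8 CPM after DMA and 509, 499 and 679 CPM in starved cells (-0.42 ± 0.14, edgeR adjusted p = 0.0409). In each of the 5, starved library 3 was the highest of the 6 libraries. The 3 mitochondrial DNA genes outside the list, MT-ND4L, MT-ATP6 and MT-ATP8, also fell, by 0.82, 0.84 and 0.78 on the log2 scale.

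Of the 6 members with a partial stop codon, 3 fell, and of the 4 with a whole one, 2 fell. The part of the stop codon in these results was not tested. Without starved library 3 only MT-ND4 remained past the threshold, with a log2 fold change of -0.65 (edgeR adjusted p = 0.0262), and the values of the other 4 were -0.46 to -0.27 (edgeR adjusted p = 0.0939 to 0.169). Only MT-ND4 remained, too, without DMA library 1 or without DMA library 2. Without DMA library 3, MT-ND5 lost its call (edgeR adjusted p = 0.0525). The block added MT-CO2 (log2 fold change -0.69 ± 0.26, edgeR adjusted p = 0.0674, and 0.0496 with the block), a call that was lost without any 1 of the DMA libraries or starved library 3 (edgeR adjusted p = 0.0807 to 0.217). With scaling to the spike-in counts, 9 of 10 members lay above 0 (MT-ND4 at -0.20 was the exception), and the 5 falls were not called.

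Relative to starved cells, MT-ND3 fell after C646 as well, with 387, 466 and 407 CPM in C646 libraries and 509, 499 and 679 CPM in starved libraries. The groups did not overlap, and the log2 fold change was -0.42 ± 0.14 (SE, n = 3 each; edgeR adjusted p = 0.0449, and 0.0153 with the block). It was the 1 member of 10 that was called, where 11.7% of all genes tested were lower and 12.9% higher. With the block, MT-CO3 was called too (-0.57 ± 0.20, edgeR adjusted p = 0.0571, and 0.0360 with the block), where 17.8% of all genes tested were lower. In both fits the count of members called was near the background. The blocked call of MT-CO3 was lost without any 1 of C646 libraries 1, 2 and 3 or starved library 3 (edgeR adjusted p = 0.0558 to 0.146). All 10 members had fitted values below 0, with a median of -0.41, and the 10 lay above 0 with scaling to the spike-in counts. The call of MT-ND3 was lost without C646 library 1 or 3 or starved library 3 (edgeR adjusted p = 0.106 to 0.169, log2 fold change -0.40 to -0.27). DMA and C646 were set against the same starved libraries.

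**Figure D4:**
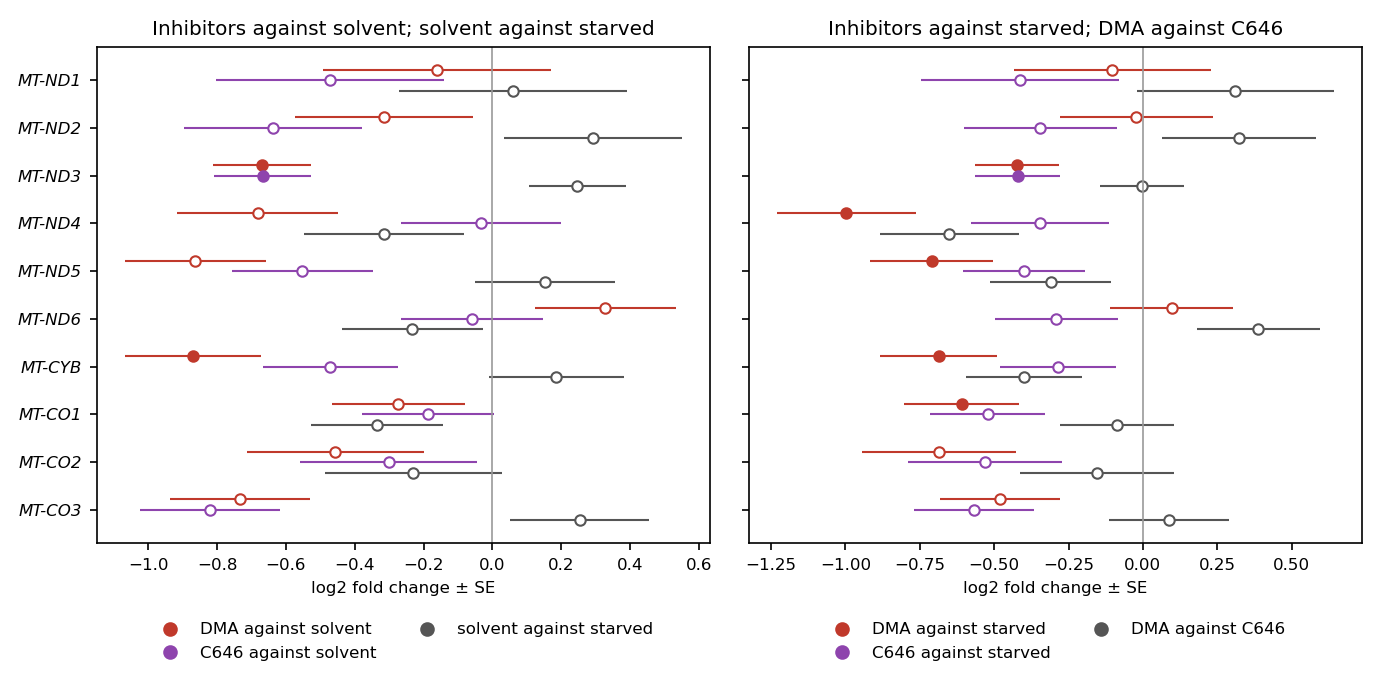
Log2 fold change ± SE of each member in the 6 comparisons, with filled points for members past the threshold of the edgeR test. On the left, MT-ND3 is filled against solvent for either inhibitor and MT-CYB for DMA, and on the right 5 members are filled for DMA against starved cells and MT-ND3 for C646 against starved cells.

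The composition of the mitochondrial counts was compared between groups too, and it does not depend on how the libraries are scaled. For each member and pair of groups the share of the mitochondrial counts was compared, 60 tests in all, and 0.1 is the smallest p that any of them could reach. After Benjamini-Hochberg adjustment over these exact permutation tests the smallest p was 0.286. The differences given here therefore describe these libraries only. MT-ND4 made up 12.1%, 14.0% and 13.0% of the mitochondrial counts in DMA libraries. It made up 18.1%, 18.7% and 19.4% in C646 libraries, 14.5%, 15.3% and 14.0% in solvent libraries and 15.4%, 18.5% and 17.2% in starved libraries. It was lower in the DMA libraries than in all others, although DMA library 2 and solvent library 3 were nearly equal at 14.0% (exact permutation p = 0.1 against each group). MT-ND4L likewise made up more in C646 libraries, 1.97% to 2.26%, than in solvent libraries, 1.15% to 1.78% (exact permutation p = 0.1). MT-CO1 made up 21.5% to 24.2% with solvent, below DMA (25.4% to 30.8%) and starved libraries (25.4% to 31.2%; exact permutation p = 0.1 for both). After C646 it made up 23.7% to 30.3%, which overlapped with each other group.

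MT-CO3 made up 8.67% to 9.42% of the mitochondrial counts after DMA, 7.14% to 8.17% after C646, 9.82% to 10.96% with solvent and 7.97% to 8.36% in starved cells. Solvent libraries were above the rest, and C646 libraries were below DMA libraries (exact permutation p = 0.1 each). MT-CYB made up 5.18% to 5.36% after DMA, 5.58% to 6.94% after C646, 6.46% to 7.02% with solvent and 5.23% to 5.95% in starved cells. Its DMA libraries did not overlap with the C646 or solvent libraries (exact permutation p = 0.1 for both). MT-ND2 made up 9.07% to 11.5% after DMA, 6.05% to 9.001% after C646, 7.94% to 10.2% with solvent and 6.26% to 7.91% in starved cells, with DMA above C646 and starved cells (exact permutation p = 0.1 for both). When the libraries were scaled to the mitochondrial counts, none of the 10 members passed the edgeR test in any of the 6 comparisons.

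**Figure D5:**
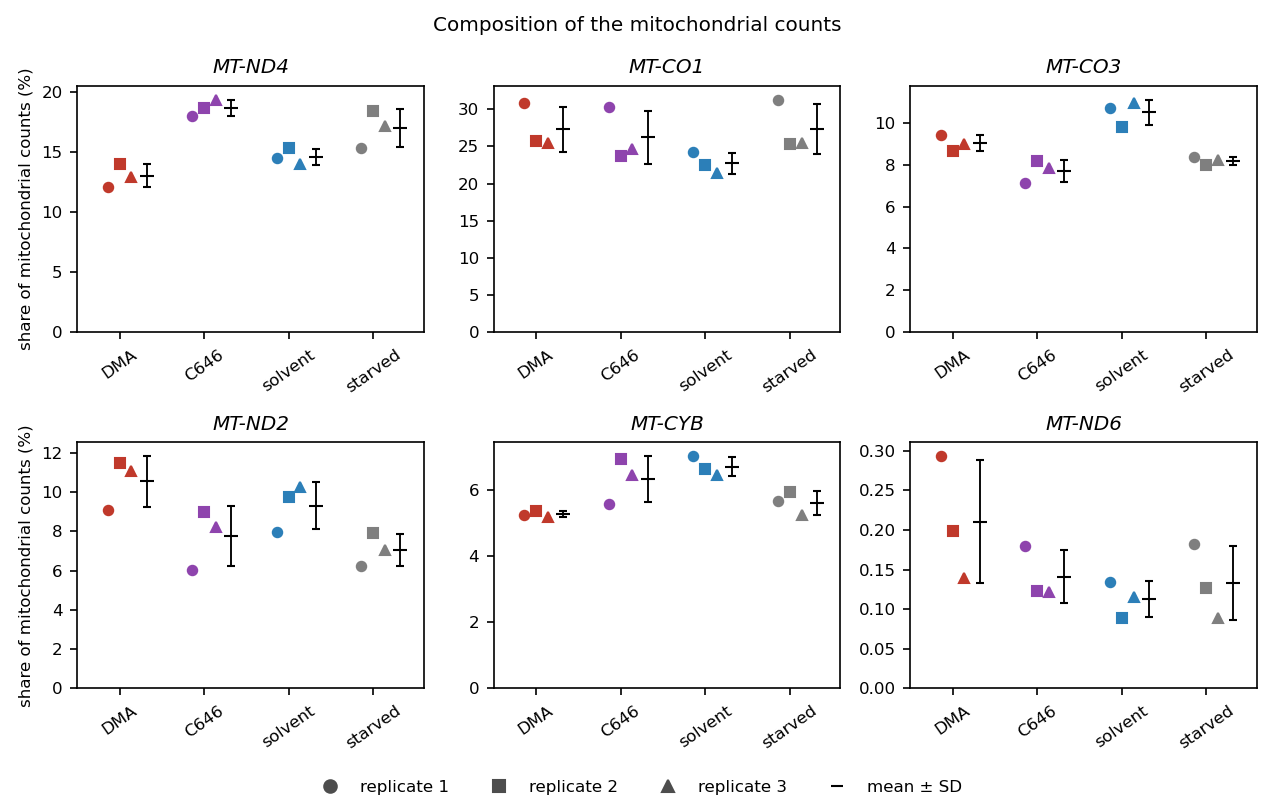
Share of the mitochondrial counts (%, linear axes from 0) of 6 members in each library, by group, with markers for replicates 1 to 3 and the mean ± SD beside them. MT-ND4 is lowest in DMA libraries (12.1% to 14.0%) and highest in C646 libraries (18.1% to 19.4%) in the mean, and MT-CO3 is highest in solvent libraries (9.82% to 10.96%).

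MT-ND6, the subunit read from the other strand, stood apart from the other members after DMA and in its correlations. It measured 49.9, 40.8 and 32.8 CPM in DMA libraries. It measured 39.0, 26.9 and 28.4 CPM in C646 libraries, 40.9, 28.8 and 28.4 CPM in solvent libraries and 44.5, 31.8 and 39.1 CPM in starved libraries. Replicate 1 was the highest library of each group, and the groups overlapped. It was the only member with a fitted value above 0 after DMA relative to solvent, 0.33 ± 0.21 on the log2 scale (edgeR adjusted p = 0.412). Its fitted values without DMA lay within the range of the other members. They were -0.23 with solvent and -0.29 after C646 relative to starved cells, and -0.06 after C646 relative to solvent. Its share of the mitochondrial counts was 0.139% to 0.293% after DMA and 0.0894% to 0.134% with solvent, without overlap (exact permutation p = 0.1). With the mitochondrial counts as scale and the replicate block together, a setting chosen after seeing the data, MT-ND6 passed the test for DMA against solvent (log2 fold change 0.84, edgeR adjusted p = 0.0252) and against starved cells (0.66, edgeR adjusted p = 0.0481). Over the 12 libraries, Pearson's r of log2 CPM was 0.34 to 0.95 for the 36 pairs of the other 9 members (median 0.72) and -0.41 to 0.25 for the 9 pairs with MT-ND6 (median -0.27). These points share their libraries, and MT-ND6 has the lowest counts. Whether the tables count reads by strand is not given in the sources used here, so reads from MT-ND6 and from the antisense side of its region cannot be told apart.

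Relative to starved cells, the nuclear genes for the same complexes that passed the test rose, whereas the members that passed it fell. No member passed with solvent, and after C646 the counts of both were near the background. With solvent, 5 of 37 nuclear complex I genes rose and none fell, among them NDUFA6 (log2 fold change 0.65), NDUFB3 (0.52) and NDUFS5 (0.52), and the median of the list was 0.26. Among all genes tested, 12.6% rose and 11.7% fell, so the count of genes that rose was near the background. Of 10 genes for complex III and cytochrome c, 2 rose and none fell: CYCS, which encodes cytochrome c (0.79), and UQCR10 (0.50). COX6C (0.32) was the 1 of 11 nuclear complex IV genes that rose, and none of 4 complex II genes passed. After DMA, 11 of 37 complex I genes rose relative to starved cells, led by NDUFA7 (0.70), NDUFA6 (0.67) and NDUFS6 (0.63), and 3 of 10 complex III genes did, led by UQCR10 (0.64), where 13.9% of all genes tested rose. After C646 these counts were 6 of 37, led by NDUFS6 (0.49), and 2 of 10, UQCR10 (0.52) and CYCS (0.41), where 12.9% of all genes tested rose. The counts after C646 were thus near the background as well. None of the 11 nuclear complex IV genes or the 4 complex II genes passed after either inhibitor relative to starved cells. None of the genes on these nuclear lists fell in the 3 comparisons with starved cells. Against solvent, none of these 62 genes for complexes I to IV passed for either inhibitor, and 7 after DMA and 1 after C646 had an unadjusted edgeR p under 0.05. The medians of their lists there were -0.07 to 0.06, and those of the members -0.56 and -0.47. Values against starved cells are relative to all genes: on the spike-in scale the median of all genes was itself 0.60 higher with solvent, 0.81 after DMA and 0.73 after C646 (log2).

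The machinery that transcribes mitochondrial DNA and handles its RNA differed between the stimulated groups and starved cells. With solvent, 6 of 10 transcription genes rose and 1 fell, where 12.6% of all genes tested rose and 11.7% fell. The elongation factor TEFM rose by 1.07, MTERF1 by 0.89 and MTERF3 by 0.84 on the log2 scale, and TFB1M, a methyltransferase of mitochondrial rRNA, fell by 0.63. Of 17 genes for RNA processing, stability and decay, 10 rose and 2 fell. FASTKD5, which acts on mitochondrial messengers at sites without a tRNA, rose by 1.54, TRMT10C, a subunit of mitochondrial RNase P, by 1.29, and FASTKD2, an RNA-binding protein, by 0.83. SUPV3L1, a helicase of RNA decay, fell by 0.52, and LRPPRC, which stabilises mitochondrial messengers, fell by 0.33, both by less than the shift of all genes on the spike-in scale.

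After DMA relative to starved cells, 5 of 10 transcription genes rose and 1 fell, and 8 of 17 RNA genes rose and 2 fell, where 13.9% of all genes tested rose and 13% fell. FASTKD5 measured 32.6, 42.9 and 40.1 CPM after DMA and 13.4, 9.21 and 11.1 CPM in starved cells (log2 fold change 1.78). LRPPRC fell by 0.65 and TFB1M by 0.92. After C646, 2 of 10 and 3 of 17 rose, led by TEFM (1.04) and FASTKD5 (1.64), and 1 and 2 fell, TFB1M by 1.16, LRPPRC by 0.58 and SUPV3L1 by 0.55, where 12.9% of all genes tested rose and 11.7% fell. These counts after C646 were near the background. Of 13 genes for mitochondrial DNA replication, 2 rose and 1 fell with solvent, 4 rose and 1 fell after DMA, and 1 rose and 1 fell after C646, counts near the background except for the rise after DMA. The helicase TWNK rose in each, by 0.71 with solvent, 0.76 after DMA and 0.43 after C646. Of 7 regulators of respiratory genes, none passed with solvent, 2 rose after DMA and 2 rose after C646, where the coactivator PPARGC1B had the largest value (1.38), and with 7 genes these counts are too small to set against the background.

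Relative to solvent, 1 gene of these lists passed for each inhibitor, where 1.02% of all genes tested were lower after DMA and 0.4% after C646. A single gene from lists of 7 to 17 is too few to set against the background. The 2 calls were not refitted without single libraries. FASTKD3, a relative of FASTKD5, measured 7.38, 5.72 and 8.60 CPM after DMA and 14.9, 14.2 and 12.2 CPM with solvent (log2 fold change -0.93 ± 0.19, edgeR adjusted p = 0.0331). PNPT1, the polynucleotide phosphorylase that works with SUPV3L1, measured 45.5, 43.8 and 46.7 CPM after C646 and 74.6, 58.8 and 67.8 CPM with solvent (-0.57 ± 0.12, edgeR adjusted p = 0.0404). In DMA relative to C646, PNPT1 (0.60) and TBRG4 (0.49) of the 17 RNA genes were higher, and of the 13 translation genes MTIF2 and TSFM, an initiation and an elongation factor, were (0.54 for both). MGME1, a nuclease of mitochondrial DNA, was higher (0.75), and GABPB1, a subunit of nuclear respiratory factor 2, was lower (-0.89). Between the inhibitors 2.89% of all genes tested passed in either direction and 1.95% were lower after DMA.

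The genes outside mitochondrial DNA whose level over the 12 libraries was most like the summed members were UQCRC2, SSR2, TMEM230, RPS3A and RCHY1, out of 10953 genes compared by Pearson's r of log2 CPM. For UQCRC2, which is on the list for complex III, r was 0.95, Spearman's rho 0.90, and r within groups 0.91. It measured 111, 115 and 119 CPM after DMA, 116, 123 and 126 CPM after C646, 142, 144 and 132 CPM with solvent and 122, 134 and 159 CPM in starved cells. The other 4 had r of 0.90 to 0.93, rho of 0.74 to 0.85 and r within groups of 0.89 to 0.95. Without starved library 3 and DMA library 1, the libraries farthest from the median of the summed members, r was 0.90 for UQCRC2 and 0.75 to 0.90 for the other 4.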

How the data were processed

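Messenger RNA of RPE-1 cells was sequenced in 12 libraries, 3 in each of 4 groups, after poly-A selection per the labels' protocols. The submitters' processing notes name Trimmomatic 0.36, STAR 2.7.0e and GRCh38.p10. No source used here gives the counting program, its annotation or the strand setting. The deposited tables give expected counts, TPM and lengths for each of 182164 transcripts, per the file headers. The expected counts in the deposited tables were summed per gene with GENCODE 29 and rounded, where the design had assumed raw counts. The deposited TPM were summed per gene for levels between genes. Spike-in controls (92) and 264 transcripts without a match were left out of the gene table, which holds 43481 genes.

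Genes passing filterByExpr (minimum count 10, minimum total 15; 15263 genes) were scaled by TMM and tested with edgeR 4.0.16 (robust quasi-likelihood F-test, 12 libraries in 1 fit, Benjamini-Hochberg adjustment, threshold 0.05) in R 4.3.3. The script was tested on simulated data. Shares were compared by exact two-sided permutation tests. CPM are TMM-scaled. A member was called uncertain where over 20% of its 31-base words occur in another gene. The members, gene lists and rules were chosen with earlier results of these data known. All members are named, with up to 3 genes in each direction from each list and comparison, and the 5 genes most like the members (mean log2 CPM of at least 2, prior count 2).

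The replicate numbers were taken to pair libraries where each pair of same-numbered deviations from the group means correlated above 0.1 across genes. This held for 5 comparisons (0.128 to 0.483). For solvent with starved cells the values were 0.0957, 0.330 and 0.182, so it did not hold there. Alternatives were DESeq2 1.42.0 (its test and its size factors), spike-in scaling, mitochondrial transcripts left out of the totals, other filters, only the compared groups, the replicate block and leaving out each library. Scaling to mitochondrial counts and combinations with the block were added after seeing the data.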

Additional observations from a re-analysis of the deposited data

How the results depend on the processing

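Of 420 member values refitted with DESeq2 size factors, totals without mitochondrial transcripts, other filters, DESeq2's Wald test, only the compared groups or the replicate block, 400 kept their direction and side of the threshold, 6 lost and 14 gained a call, and none turned. Members called were 0 of 10 for solvent against starved cells, 2 for DMA against solvent, 1 for C646 against solvent, 0 for DMA against C646, 5 for DMA against starved and 1 for C646 against starved cells. DESeq2's Wald test called 4 for DMA against solvent, 2 for C646 against solvent and 3 for C646 against starved cells. With only the compared groups in the fit, 0 were called for DMA against solvent and 0 for C646 against starved cells. The replicate block gave 4 for DMA against solvent, 3 for C646 against solvent, 2 for C646 against starved and 6 for DMA against starved cells, and it called none for DMA against C646 or for solvent against starved cells. For solvent with starved cells the numbers are not taken as pairs, although each library there correlated best with its own number.

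Scaling to the spike-in counts left 0 calls for DMA against solvent, 0 for C646 against solvent, 0 for C646 against starved and 1 for DMA against starved cells, MT-ND6 higher. This scaling called 6574 of the 15263 genes tested for DMA against starved cells, in either direction. Against starved cells it turned values: after DMA, MT-ND3 to 0.39, MT-ND5 to 0.081, MT-CYB to 0.12 and MT-CO1 to 0.19, and after C646, MT-ND3 to 0.29 (log2). Together with the replicate block, it called MT-CYB lower (-0.64) and MT-ND6 higher (0.59) for DMA against solvent, MT-CO3 lower (-0.69) for C646 against solvent, 6 members higher for solvent against starved, 3 higher for DMA against starved (MT-ND1 at 0.72, MT-ND2 at 0.79 and MT-ND6) and 1 higher for C646 against starved cells, MT-ND6 at 0.40. Of the 15263 genes tested, this setting called 8179 for solvent, 10386 for DMA and 9816 for C646 against starved cells, in either direction. Against solvent it called 2199 for DMA and 956 for C646. The counts of members called against starved cells were thus near or below the background. MT-ND3 was then at 0.38 after DMA and 0.28 after C646, MT-ND5 at 0.081, MT-CYB at 0.12 and MT-CO1 at 0.20 after DMA. The log2 ratio of the mitochondrial share per spike-in count was 0.46 for solvent, 0.18 for DMA and 0.20 for C646, each against starved cells. Scaling to mitochondrial counts left 0 calls for DMA against solvent, C646 against solvent, DMA against starved and C646 against starved cells, with MT-ND3 at 0.14 after DMA and 0.0077 after C646 against starved cells. With the block as well, 1 member was called for DMA against solvent and 1 for DMA against starved, both MT-ND6 higher, and 0 for C646 against solvent or starved cells, with MT-ND3 at 0.15 and 0.0091. This setting called 2691 of the 15263 genes tested for DMA against solvent and 5667 for DMA against starved cells, in either direction. The cause of these shifts was not tested.

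Leaving out each library gave 0 to 2 calls for solvent against starved, 0 to 3 for DMA against solvent, 0 for C646 against solvent, 1 to 6 for DMA against starved and 0 to 3 for C646 against starved cells. With the block the ranges were 0 to 5, 1 to 9, 1 to 5, 1 to 7 and 0 to 3 in that order, with 9 without solvent library 3. That refit called 1971 of all genes tested for DMA against solvent, in either direction. The log2 ratio of the mitochondrial share ranged from -0.19 to 0.25 for solvent against starved, -0.63 to -0.38 for DMA against solvent, -0.49 to -0.31 for C646 against solvent, -0.24 to 0.01 for DMA against C646, -0.70 to -0.26 for DMA against starved and -0.58 to -0.14 for C646 against starved cells. It turned for solvent against starved without starved library 3 (0.25) or solvent library 3 (0.05), and for DMA against C646 without DMA library 1 (0.011). Adding the nuclear copies to the members was not run, since those copies were not analysed here. Counts of the members are high, so the number of libraries, not depth, limits these comparisons.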
